A study of Homo sapiens with 4 samples.

Results

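The AP-1 family transcription factors were described in A549 cells, a human lung adenocarcinoma line, with and without knockdown of YTHDF2. The members are the 9 genes JUN, JUNB, JUND, FOS, FOSB, FOSL1, FOSL2, ATF3 and MAFF, found by gene name among the 28283 genes of the deposited FPKM table. Their m6A peaks were looked up by the same names in the deposited peak lists, where 6 of the 9 appear. By sequencing, the study asked which transcripts change in level, and which carry m6A, when this reader of m6A is depleted. Cells with a control vector (shNC) and cells with an shRNA against YTHDF2 (shY2-2) were each sequenced as 1 input library (poly(A) RNA after fragmentation) and 1 IP library (the fragments pulled down by an antibody to m6A), so that there are 4 libraries. Both lines were stably infected with lentivirus and selected with puromycin, and the knockdown line carries 1 shRNA. With 1 library of each kind per condition, replicate error is unknown for every comparison and none was tested.

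AP-1 is a dimer of basic leucine zipper proteins that binds DNA at sites such as TGACTCA. Jun proteins pair with each other or with Fos proteins, whereas Fos proteins need a Jun partner to bind well. ATF3 joins Jun proteins and often represses, and MAFF is a small MAF protein that has no activation domain and pairs with factors such as NRF2 and BACH1. Many of these genes are immediate early genes, which growth factors and stress induce within minutes and whose mRNAs are short-lived. YTHDF2 binds m6A in mRNA and recruits the machinery that removes the poly(A) tail, so that the level and the methylation of short-lived mRNAs are both of interest here.

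YTHDF2 had an FPKM (fragments per kilobase of exon, scaled to the mapped reads of the library) of 3.56 in the shNC input and 1.02 in the shY2-2 input. The labelled cell type was checked against markers. All 5 epithelial markers were present in both libraries, led by the keratin KRT8 (FPKM of 523 and 322), and all 5 were lower in shY2-2, with log2 ratios between -0.95 and -0.46 and a median of -0.70, lower than that of the AP-1 genes below; the part of such a difference between the lines in the AP-1 values was not tested. The 2 alveolar type II markers of the table, SFTPC and NAPSA, were below an FPKM of 1 in both libraries. Of 7 markers of blood, endothelial and fibroblast cells, 5 stayed below 1 in both libraries, and the most abundant, CD68, had 12.2 and 10.2. The summed FPKM of these 7 genes was 14.02 in shNC and 12.03 in shY2-2. In bulk RNA, fewer cells of a type and less RNA per cell cannot be told apart. Sequencing depth is unknown from FPKM alone, so no interval for counting error can be given.

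Stretches of sequence that lie under m6A peaks are shown first. The consensus of m6A methyltransferase includes GGACT, in which the A is the base that can be methylated. JUN and JUND were the members with GGACT inside the part of a peak that both conditions share, and all 5 such sites lie in the 3′-UTR. They are given 5′ to 3′ on the strand of the gene, from GRCh38, with GGACT in capitals and 8 bases on either side.
JUN, 134 nt after the stop codon, chr1:58781931-58781951, - strand: tccaagttGGACTgggttgcg
JUN, 181 nt after the stop codon, chr1:58781884-58781904, - strand: agtgggaaGGACTtggcgcgc
JUN, 278 nt after the stop codon, chr1:58781787-58781807, - strand: ggaacgttGGACTtttcgtta
JUND, 76 nt after the stop codon, chr19:18280355-18280375, - strand: ggcgccccGGACTtggagagg
JUND, 180 nt after the stop codon, chr19:18280251-18280271, - strand: ggtgcccaGGACTcgacaagc
Distances are to the methylatable A, in the reference transcripts ENST00000371222 (JUN) and ENST00000252818 (JUND) of GENCODE release 44. The presence of these letters is a description and does not show that the base is methylated.

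The AP-1 RNA pool was led by JUNB, FOSL1, JUND, FOSL2 and JUN in both input libraries, whereas ATF3, FOS, MAFF and FOSB stayed below an FPKM of 2. In shY2-2, JUN, FOSL2, JUNB, FOS and FOSL1 were lower than in shNC. JUN had the lowest ratio, and the place of FOS depends on the pseudocount: its FPKM in shY2-2 was 40.5% of that in shNC, beside 39.0% for JUN, 56.3% for FOSL2 and 60.8% for JUNB. JUND and ATF3 were close to their control level, and MAFF was higher. Log2 ratios compare shY2-2 with shNC after a pseudocount of 1 was added to each FPKM. They were taken over the 12268 genes that reached an FPKM of 1 in either input library. On this scale the ratio of a gene at low FPKM comes out smaller than its fold. Of the 9 members 8 were kept, and FOSB was not; FOS was kept through the shNC library and MAFF through the shY2-2 library alone.

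Of the Jun proteins, JUN (c-Jun, the founding member; ENSG00000177606, chr1:58780788-58784327, - strand) had an FPKM of 13.3 in shNC and 5.18 in shY2-2. Its log2 ratio was -1.21, at percentile 0.95 of all genes kept. JUNB (ENSG00000171223, chr19:12791496-12793315, + strand), which can oppose c-Jun at some promoters, had an FPKM of 49.7 in shNC and 30.2 in shY2-2, a log2 ratio of -0.70 at percentile 6.06. JUND (ENSG00000130522, chr19:18279760-18281622, - strand), the constitutively expressed Jun protein, had 22.8 in shNC and 26.1 in shY2-2, a log2 ratio of 0.18 at percentile 69.5. JUN and JUNB were therefore lower and JUND was slightly higher in the shY2-2 library. The summed FPKM of these 3 genes was 85.9 in shNC and 61.5 in shY2-2. Within this sum the share of JUN was 15.5% in shNC and 8.43% in shY2-2, that of JUNB 57.9% and 49.2%, and that of JUND 26.6% and 42.4%.

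Among the Fos proteins, FOSL1 (FRA-1, a Fos protein without the activation domain of FOS; ENSG00000175592, chr11:65892049-65900573, - strand) had an FPKM of 23.3 in shNC and 17.1 in shY2-2, a log2 ratio of -0.43 at percentile 14.9. FOSL2 (FRA-2, of the same kind; ENSG00000075426, chr2:28392448-28417312, + strand) had 19.9 in shNC and 11.2 in shY2-2, a log2 ratio of -0.78 at percentile 4.70. FOS (c-Fos, the classical immediate early gene; ENSG00000170345, chr14:75278774-75282230, + strand) had 1.12 in shNC and 0.452 in shY2-2, a log2 ratio of -0.54. FOSB (ENSG00000125740, chr19:45467995-45475179, + strand) had 0.267 in shNC and 0.259 in shY2-2. All 4 were thus lower in the shY2-2 library, FOSB by very little. The 4 genes summed to an FPKM of 44.6 in shNC and 28.9 in shY2-2, and FOSL1 and FOSL2 together made up nearly all of it. FOSL1 held 52.3% of the sum in shNC and 58.9% in shY2-2, and FOSL2 held 44.6% and 38.6%.

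The partners of Jun and of NRF2 were at low level. ATF3 (a stress-induced repressor; ENSG00000162772, chr1:212565334-212620777, + strand) had an FPKM of 1.20 in shNC and 1.47 in shY2-2, a log2 ratio of 0.17. MAFF (ENSG00000185022, chr22:38200767-38216511, + strand) had 0.291 in shNC and 1.69 in shY2-2, a log2 ratio of 1.06 at percentile 99.2 of all genes kept. The size of the MAFF ratio depends on the pseudocount, with a log2 ratio of 2.20 at a pseudocount of 0.1 and of 0.34 at a pseudocount of 5.

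**Figure D1:**
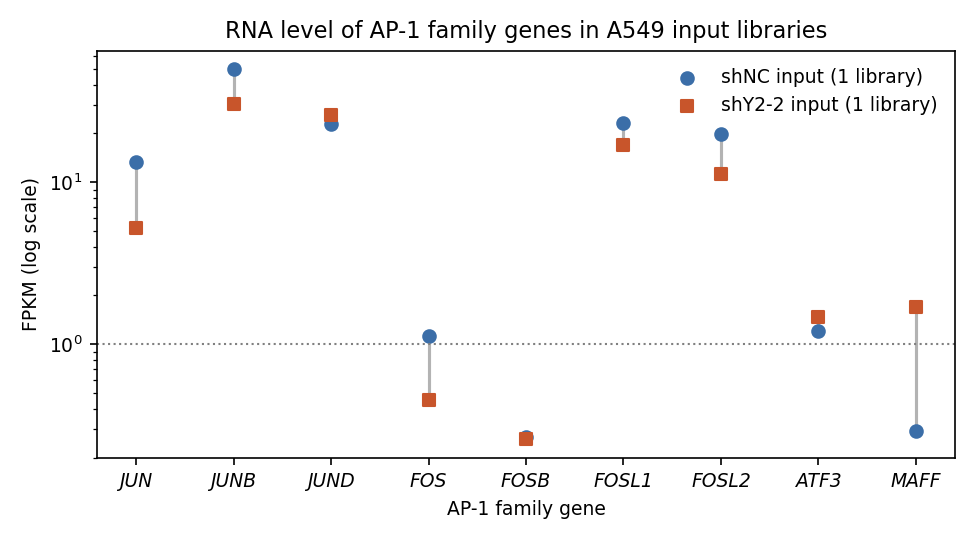
RNA level of the 9 AP-1 family genes as FPKM (log axis) in the shNC input (circles) and the shY2-2 input (squares), 1 library each, so no error is drawn; the dotted line marks an FPKM of 1. JUN sits at 13.3 and 5.18 and JUNB at 49.7 and 30.2, both lower in shY2-2, whereas MAFF sits at 0.291 and 1.69.

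The order of the levels was JUNB, FOSL1, JUND, FOSL2, JUN, ATF3, FOS, MAFF and FOSB in shNC, and JUNB, JUND, FOSL1, FOSL2, JUN, MAFF, ATF3, FOS and FOSB in shY2-2. With 1 library per condition it cannot be said which neighbours in these orders differ beyond the spread. JUND passed FOSL1, and MAFF passed ATF3 and FOS. Summed over all 9 genes the FPKM was 132 in shNC and 93.6 in shY2-2, a ratio of 0.709.

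Past 2-fold, 1 of the 8 members kept was lower in shY2-2 (JUN) and 1 was higher (MAFF). Over all genes kept, 2.14% had a log2 ratio below -1 and 0.986% a log2 ratio above 1. At 1.5-fold, 3 members were lower (JUN, JUNB and FOSL2) and 1 was higher (MAFF), against 8.92% and 5.38% of all genes kept. By direction alone 5 members were lower and 3 higher, where 49.7% of all genes kept were lower and 50.3% higher. In these counts MAFF, kept through shY2-2 alone, could only be higher. FOS, kept through shNC alone, could only be lower. The median log2 ratio of the 8 members was -0.49 and that of all genes kept 0.00. Counts of this size in 8 genes describe these libraries and nothing particular to the family was tested.

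The ratios of all genes moved with the GC content of the reference transcript. In 10 bins of GC content, the median log2 ratio ranged from -0.23 in the bin of lowest GC to 0.11 in the bins of highest GC. The kept members have a GC content between 50.4% (ATF3) and 69.9% (JUND), where the median of the bins was between 0.06 and 0.11. Relative to their own bin, JUN was at -1.32, FOSL2 at -0.86, JUNB at -0.81, FOS at -0.62 and FOSL1 at -0.54, each farther below 0 than before. MAFF was at 0.95 by this measure, which was chosen after the values were seen, and so no longer past 2-fold.

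**Figure D2:**
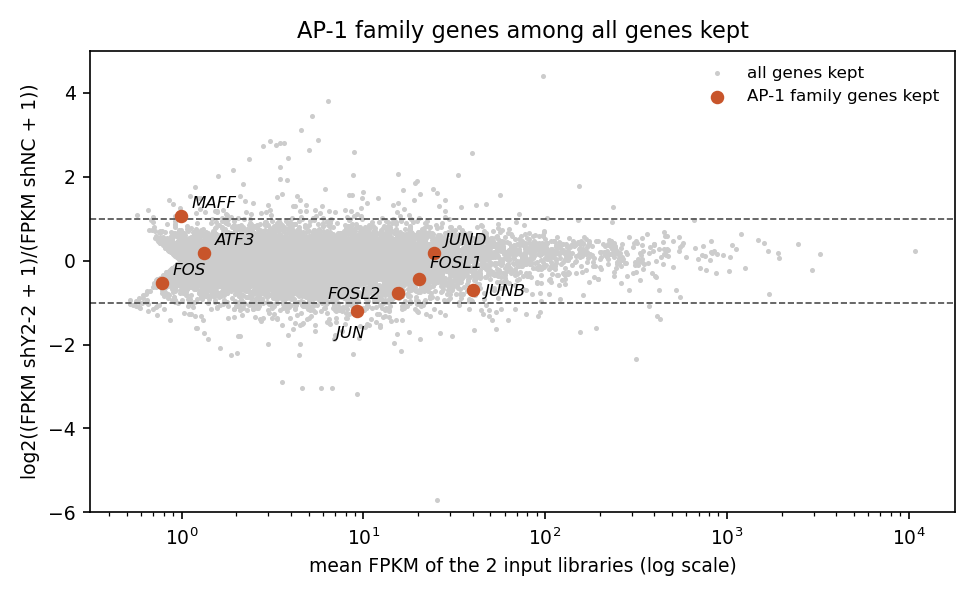
Log2 ratio of shY2-2 over shNC with a pseudocount of 1 against the mean FPKM of both input libraries (log axis) for the 12268 genes kept (grey points), with the 8 AP-1 family genes kept in colour and dashed lines at -1 and 1. JUN at -1.21 and MAFF at 1.06 lie past the lines, and JUNB, FOSL1 and FOSL2 lie below 0 among genes of similar level.

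Peaks of m6A were called by the authors for each condition with exomePeak, which compares IP with input reads. The lists give no strand for a peak, only that of the gene to which it was annotated, and the word strand is used for peaks in that sense. For each peak they hold a fold enrichment of IP over input and a false discovery rate (FDR). Under their own names 6 of the 9 members had a peak in both lists, namely JUN, JUND, FOSL1, FOSL2, ATF3 and MAFF. JUNB, FOS and FOSB had none in either list. Of all genes kept, 81.2% had a peak in the shNC list, 78.4% in the shY2-2 list, 72.7% in both and 13.1% in neither. The members held 16 peaks of 31057 in shNC and 16 of 27344 in shY2-2. Both deposited lists hold more peaks than the paper reports for these cells, and the reason is not given in the sources used here. The median fold enrichment of the members' peaks was 1.88 in shNC and 2.35 in shY2-2, beside 2.17 and 2.26 over all peaks.

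By overlap of at least 1 nt of exonic sequence on the same strand, 12 of the 16 shNC peaks met a shY2-2 peak and 13 of the 16 shY2-2 peaks met a shNC peak. Over all peaks these shares were 55.9% and 65.4%. By the authors' annotation 11 of 16 member peaks lay in a 3′-UTR in either list, beside 59.1% of all shNC peaks and 59.5% of all shY2-2 peaks. GGACT, searched on the strand of the gene, was present in 5 of the 16 member peaks in each list. Over all peaks with a sequence 28.7% held it in shNC and 29.1% in shY2-2. The members' shares thus lie near those of all peaks for this motif.

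JUN had peaks at both ends of its single-exon mRNA. In shNC, a peak of 541 nt at the 5′ end (chr1:58783547-58784087) was enriched 4.12-fold with an FDR of 7.08e-06, which ranks at percentile 81.8 by fold among shNC peaks. A peak of 811 nt over the stop codon and the 3′-UTR (chr1:58781448-58782258) had a fold enrichment of 3.62 (FDR 1.58e-23) and holds the JUN sites printed above. Another, of 391 nt over the start codon (chr1:58782857-58783247), had 1.40 (FDR 0.00794) and met no shY2-2 peak. In shY2-2, the 5′ peak (chr1:58783697-58784327) had a fold enrichment of 2.38 (FDR 0.0363). The peak at the stop codon (chr1:58781688-58782258) was 571 nt long and enriched 2.31-fold (FDR 4.79e-05), and all 571 nt lie inside the shNC peak. Another peak of 421 nt at the 3′ end (chr1:58780788-58781208), absent from the shNC list, had 5.78 (FDR 0.0646). At both shared places the fold enrichment was lower in shY2-2, where the RNA level of JUN was lower too. FOSL1 and FOSL2 had lower RNA in shY2-2 but a higher fold enrichment of their strongest peak. JUND had slightly higher RNA and a lower fold enrichment of its longest peak. The part of RNA level in these values was not tested.

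JUND, also a single-exon gene, had 3 peaks in each list, and every one met a peak of the other list. The longest covered 1035 nt in shNC (chr19:18279760-18280794), from the coding sequence over the stop codon into the 3′-UTR, with a fold enrichment of 3.66 (FDR 1.00e-31). In shY2-2 the corresponding peak covered 1242 nt (chr19:18279760-18281001) with 2.52 (FDR 2.51e-26). Both contain the JUND sites printed above. In each list a further peak, made of 2 blocks with a gap between them, lies inside the longest one and is not independent of it, with fold enrichments of 1.80 and 1.88. The remaining peak lies in the coding sequence with 1.27 and 1.37.

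FOSL2 had 6 peaks in each list, more than any other member, along the longest transcript of the family (6713 nt, of which 4869 nt are 3′-UTR). Its strongest peak lay in the 5′-UTR. In shNC this peak (chr2:28392825-28393415) had a fold enrichment of 5.28 (FDR 6.31e-10). In shY2-2 the place was split in 2 peaks, one (chr2:28392448-28393265) with 8.33 (FDR 2.63e-07), the highest fold enrichment of any member peak, at percentile 94.6 among shY2-2 peaks, and one of 91 nt with 1.68 (FDR 0.128). The other FOSL2 peaks in the coding sequence and the 3′-UTR had fold enrichments between 1.26 and 1.95 in shNC and between 1.24 and 2.97 in shY2-2. Their FDR was at most 0.0389 in shNC, but between 0.0603 and 0.112 in shY2-2. At an FDR of at most 0.05 the shY2-2 list thus kept only the FOSL2 peak with 8.33, fewer than for JUND. None of the FOSL2 peaks that both conditions share holds GGACT in the shared part.

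FOSL1 had 1 peak in each list, both in the 3′-UTR, and they share 180 nt. The fold enrichment was 2.31 in shNC (chr11:65892259-65892498, FDR 0.000162) and 5.78 in shY2-2 (chr11:65892049-65892438, FDR 0.0135). The shY2-2 peak reaches farther to the 3′ end of the transcript and there takes in 2 GGACT that the shNC peak does not cover. The fold enrichment of the FOSL1 peak as called was thus higher in shY2-2, and that of JUN at its shared places lower. The FOSL1 values are of different intervals, 240 nt in shNC and 390 nt in shY2-2, so a rise at the same place is not shown. ATF3 had 1 peak in shNC with a fold enrichment of 2.86 (FDR 0.220) and 2 in shY2-2 with 2.64 (FDR 0.220) and 3.14 (FDR 0.0525), and none of them met. MAFF had 2 peaks in shNC with 2.07 (FDR 0.113) and 1.80 (FDR 0.289), and 1 in shY2-2 with 1.73 (FDR 0.284), all in the 3′-UTR. No peak of ATF3 or MAFF reached an FDR of 0.05. With peaks of an FDR of at most 0.05, 4 members remained in each list (JUN, JUND, FOSL1 and FOSL2), with 12 of 16 peaks in shNC and 7 of 16 in shY2-2, where 56.4% and 52.1% of all peaks remained. Of these, 6 of 12 and 6 of 7 met a remaining peak of the other list, beside 61.7% and 77.1% of all remaining peaks.

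JUNB, the most abundant member, has no peak under its own name, but its single exon is covered by peaks that the authors' annotation gives to HOOK2 on the opposite strand. HOOK2 codes for a cytoskeletal linker protein, and its span in the deposited table contains JUNB. In shNC, a HOOK2 peak of 538 nt (chr19:12792748-12793285) was enriched 4.96-fold with an FDR of 1.26e-12, at percentile 86.1 by fold among shNC peaks. It runs from 976 to 1513 nt after the start codon of JUNB, over the stop codon of JUNB into its 3′-UTR. In shY2-2 the peak at the same place covered 478 nt (chr19:12792778-12793255) with 4.07 (FDR 3.55e-10). Another HOOK2 peak over the coding sequence of JUNB had a fold enrichment of 1.56 (FDR 1.35e-09) in shNC and 1.22 (FDR 0.243) in shY2-2.

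The FPKM of HOOK2 was 1.05 in shNC and 0.877 in shY2-2, that of JUNB 49.7 and 30.2. The libraries were prepared by a method that keeps the strand, but whether the peak caller used it is not given in the sources used here. From which strand the fragments of these peaks came was therefore not tested. The part of the larger peak that both conditions share holds 7 GGAC on the strand of JUNB and 3 on that of HOOK2. On either strand 1 of these is part of GGACT. The 5 sites on the JUNB strand closest to its stop codon are shown since they lie under this peak listed for HOOK2, with GGAC in capitals, on the + strand of GRCh38. Distances are of the A from the last base of the stop codon.
JUNB, position -12, chr19:12792793-12792812: gggtcaagGGACacgccttc
JUNB, position 22, chr19:12792827-12792846: ccctttacGGACaccccctc
JUNB, position 38, chr19:12792843-12792862: cctcgcttGGACggctgggc
JUNB, position 99, chr19:12792904-12792923: ccaccctgGGACctaggggc
JUNB, position 126, chr19:12792931-12792950: accacactGGACtccggccc
Among 1562 genes kept that had no peak under their name in either list and a reference transcript, 228 (14.6%) had exons covered by a peak listed for a gene of the opposite strand in both lists. Of the 121 such genes with a mean FPKM of at least 20, where JUNB lies, 33 (27.3%) did. FOSB had such a peak in shY2-2, listed under ERCC1, of which 108 nt lie over FOSB exons (FDR 0.357). FOS had none. MAFF overlaps an exon of PLA2G6 on the opposite strand, which had an FPKM of 0.51 in shNC and 0.478 in shY2-2; whether strand was used in computing FPKM is not given in the sources used here either.

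**Figure D3:**
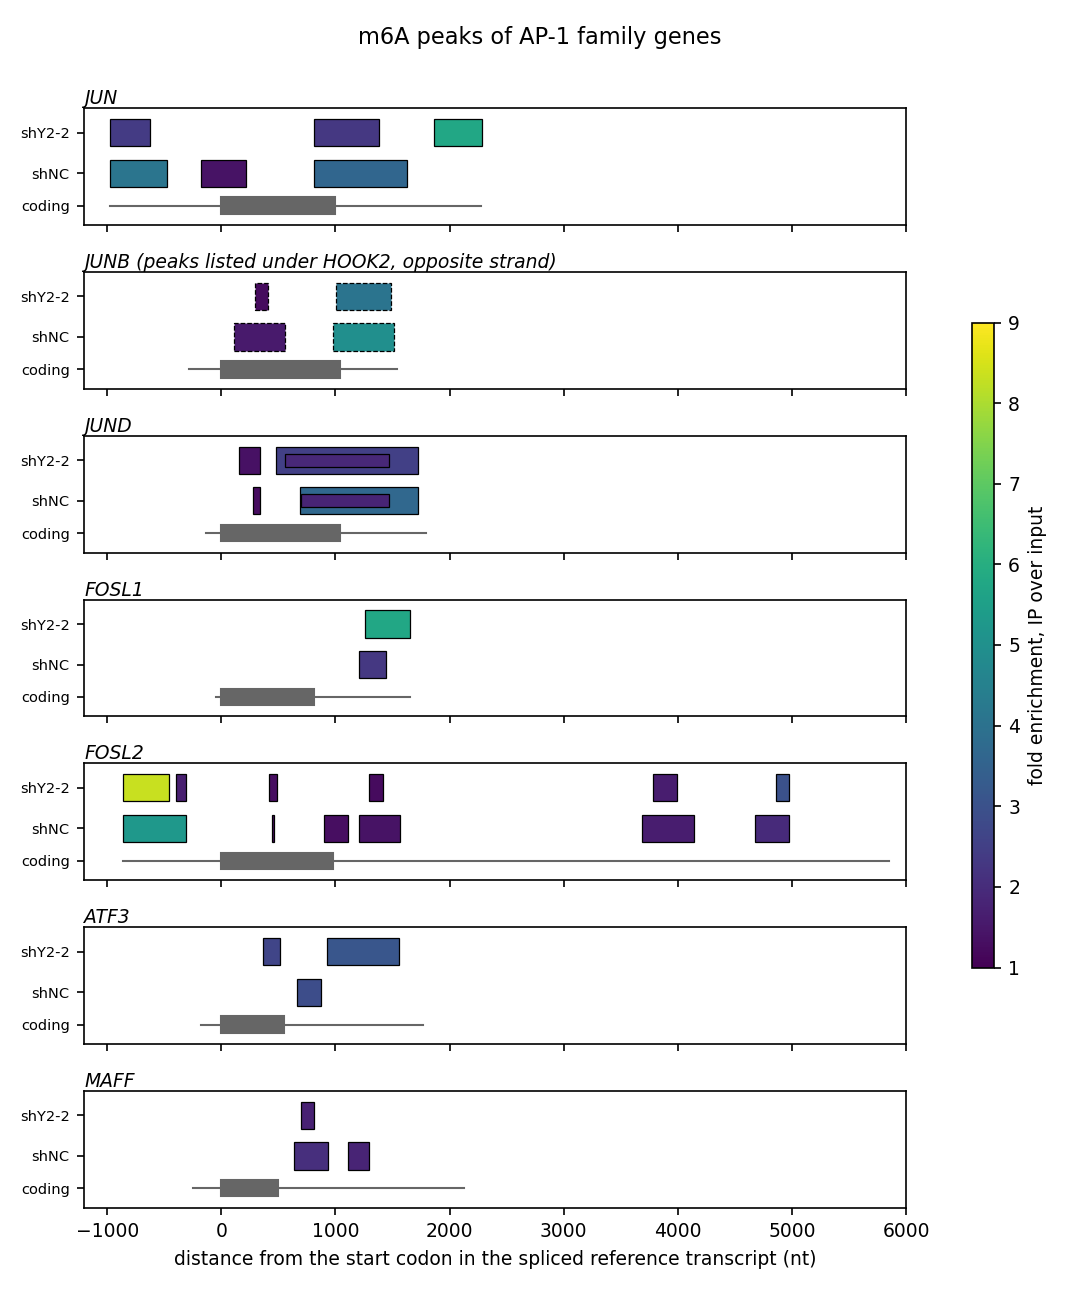
Peaks of m6A along the spliced reference transcript of 7 AP-1 family genes, as distance from the start codon in nt, with the coding sequence as a grey box and the UTRs as lines; bars run from the first to the last base of a peak in the transcript, for shNC and shY2-2 separately, and colour gives the authors' fold enrichment. The thin inner bars of JUND are the 2-block peaks inside its longest peak, and the dashed bars of JUNB are peaks listed under HOOK2 on the opposite strand, with fold enrichments of 4.96 and 4.07 over the JUNB stop codon.

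Genes kept with a peak in both lists had a median log2 ratio of 0.02, and those with a peak in neither list -0.02. Among the members, the 6 with a peak in both lists ran from -1.21 (JUN) to 1.06 (MAFF), and the 2 with no peak under their names had -0.70 (JUNB) and -0.54 (FOS). In the shNC list the members whose peaks had the lowest FDR were JUND and JUN, with log2 ratios of 0.18 and -1.21. In the shY2-2 list they were JUND and FOSL2, with log2 ratios of 0.18 and -0.78.

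Other sequence features of the family were described from the reference. JUN, JUNB and JUND have 1 exon each, as do 1.99% of the coding genes kept. The 3′-UTRs of all 9 members contain ATTTA, the core of AU-rich elements that mark short-lived mRNAs, as do 73.3% of the coding genes kept. Per kb of 3′-UTR, FOS had the highest density of ATTTA of the members (6.20, at percentile 95.1 of the coding genes kept), followed by JUNB (4.00, at percentile 84.5), whereas FOSL1 had 1.19 (percentile 40.6). By the same density FOSL2 was at percentile 52.6 and MAFF at percentile 63.5. FOS, FOSL2 and MAFF have a pair of ATTTA within 30 bases. The share of all coding genes kept with such a pair is not given here, so the pairs are a description only. Their windows are shown, with ATTTA in capitals, as the places where the element repeats.
FOS, chr14:75282047-75282076, + strand: aaacgttttattgtgtttttaATTTATTTA
FOSL2, chr2:28416342-28416371, + strand: agaagaaattgacATTTAttttattATTTA
MAFF, chr22:38216390-38216419, + strand: aaatattgcccggctcctagaATTTATTTA
The FOSL2 window lies inside its last 3′-UTR peak of both lists, with fold enrichments of 1.95 in shNC (FDR 0.0170) and 2.97 in shY2-2 (FDR 0.0832).

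For 8 members, 10 promoters were found in the RefSeq table of GRCh38.p14, from 250 bases before to 50 bases after the start. They were searched on both strands for TGACTCA (the AP-1 site), TGACGT (the core of the cAMP response element), TGACATC (the variant known from the JUN promoter) and the CArG box bound by SRF. In the sequence TGACGTCA the core is read on either strand, and it was counted once per promoter. FOSL2 alone held TGACTCA, which 4.95% of all 35116 promoters hold. TGACGT was found in 5 of the 10 member promoters, 1 each of FOS, FOSB, FOSL2, JUND and MAFF, and in 7.98% of all promoters. JUN and ATF3 held TGACATC, in 2 of the 10 member promoters and in 4.22% of all promoters. Since the motif is known from the JUN promoter, its presence there was fixed in advance. No member promoter held a CArG box in this window, as 1.29% of all promoters do, and sites outside the window were not searched. The motif is in capitals in these stretches, read on the strand of the gene, with the position of its first base from the RefSeq start.
JUN, position -67, chr1:58784100-58784122, - strand: ccttggggTGACATCatgggcta
ATF3, position -123, chr1:212565276-212565298, + strand: ctatgataTGACATCatatggcc
JUND, position -200, chr19:18281809-18281830, - strand: cgcccccaTGACGTcaacccac
FOSB, position -60, chr19:45467928-45467949, + strand: ggggcgggTGACGTaagcaggg
FOS, position -64, chr14:75278756-75278777, + strand: tgagcccgTGACGTttacactc
FOSL2, position -66, chr2:28392784-28392805, + strand: tctggggtTGACGTgagtgaat
MAFF, position -54, chr22:38201932-38201953, + strand: cgggtcggTGACGTcaccgcat
JUND also holds the core on the other strand, at position -87. Of the carriers of TGACGT that reached the FPKM minimum in shNC as well as in shY2-2, FOSL2 had a log2 ratio of -0.78 and JUND of 0.18.

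Genes that pair with AP-1 proteins, act upstream or are known targets were described as lists of genes. In each, the gene with the highest FPKM in a single library is given beside those past 2-fold. Past that size, 2.14% of all genes kept were lower and 0.986% higher. Of 10 other dimer partners kept, 1 was past 2-fold, MAFG, a small MAF like MAFF, with an FPKM of 9.84 in shNC and 31.4 in shY2-2 (log2 ratio 1.58). MAFK, another small MAF, had 15.1 and 16.5. The partner with the highest FPKM, NFE2L1, had 34.4 and 32.6, and NFE2L2 (NRF2) had 7.41 and 10.8. The median log2 ratio of the list was 0.06, beside 0.00 over all genes kept.

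None of 18 MAP kinase pathway genes passed 2-fold. The SRF list of 9 genes, which holds SRF, its cofactors and also MEF2A, MEF2D and CREB1, had none past 2-fold either. The kinase list had a median log2 ratio of -0.09, and the gene with its highest FPKM, RPS6KA3 (a ribosomal S6 kinase downstream of ERK), had 19.4 in shNC and 10.2 in shY2-2. Of the kinases that phosphorylate c-Jun, MAPK8 (JNK1) had 2.41 and 2.13 and MAPK9 (JNK2) 5.92 and 5.21. SRF, the factor through which serum drives FOS, had 7.62 in shNC and 13.2 in shY2-2, and its cofactor ELK3, with the highest FPKM of its list, 10.5 and 19.9. Other genes of that list were lower, with log2 ratios of -0.63 for MKL2, -0.50 for MKL1 and -0.41 for ELK4. In all 4 were higher and 5 lower, with a median of -0.03.

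Of 25 other immediate early genes kept, 2 were lower past 2-fold and none was higher, beside 2.14% and 0.986% of all genes kept. CYR61, a secreted matrix protein, had 22.3 in shNC and 7.76 in shY2-2 (log2 ratio -1.41), and CTGF, of the same family, 4.43 and 1.66 (-1.03). The gene with the highest FPKM, IER3, had 73.4 and 63.8. The list was lower for 16 genes and higher for 9, with a median of -0.20, where 49.7% of all genes kept were lower. Of 10 genes for AU-rich element binding proteins and for ubiquitin ligases of c-Jun, none passed 2-fold, the median was 0.00, and KHSRP, with the highest FPKM, had 27.7 and 40.8.

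Of 17 textbook AP-1 targets kept, 13 were lower and 4 higher in shY2-2, with a median log2 ratio of -0.47. Over all genes kept, 49.7% were lower, 2.14% were lower past 2-fold and 0.986% were higher past 2-fold. Past 2-fold, FN1 (fibronectin) had 32.8 in shNC and 8.33 in shY2-2 (-1.86) and CXCL8 (interleukin 8) 6.81 and 2.72 (-1.07). HMOX1 (heme oxygenase 1, which is also a target of NRF2 with small MAF proteins) held the highest FPKM of the list and was higher, with 69.4 and 238 (1.77). The medians of the AP-1 members and of these targets, -0.49 and -0.47, lay below those of the other 5 lists of related genes, and above the -0.70 of the epithelial markers. This list was chosen with earlier results of these data known. It holds FN1, MMP7 and CD44, which the paper names as direct targets of the Wnt/β-catenin pathway. The paper reports their mRNA as lower after YTHDF2 knockdown, so their direction here was known beforehand. That the targets follow AP-1 in these cells was not tested.

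**Figure D4:**
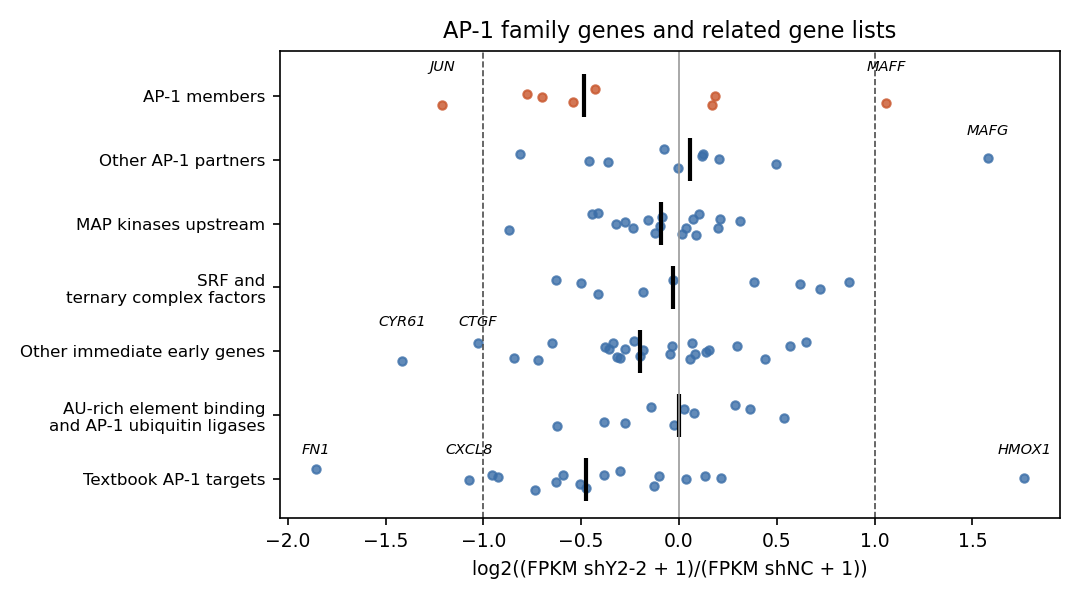
Log2 ratio of shY2-2 over shNC (pseudocount of 1) of each gene kept in the AP-1 family and in 6 related lists; points are genes, black bars medians, dashed lines mark -1 and 1, the vertical place within a list has no meaning, and genes past 2-fold are named. The medians of the AP-1 members (-0.49) and of the textbook targets (-0.47) lie lowest, with HMOX1 at 1.77 and FN1 at -1.86 at the ends.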

How the data were processed

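HISAT2 (mapping to GRCh38) and StringTie (FPKM) were used by the authors for the deposited FPKM values of the input libraries; fastp, HOMER and ChIPseeker are also named in the submitters' processing notes. Peaks were called by the authors with exomePeak for each condition on 1 IP and 1 input library; the deposited fold enrichment is a linear ratio of IP over input, beside a p-value (at most 0.049) and the deposited log10 scores of p and FDR. Versions and the annotation release are not given in the sources used here.

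Members and gene lists were chosen with earlier results of these data known. Ratios used a pseudocount of 1 and a minimum FPKM of 1 in at least 1 library. A gene was called past 2-fold by size alone. The genes named are all members, and of the other lists the genes past 2-fold and the gene with the highest FPKM in a single library. MEF2A, MEF2D and CREB1 are named as contents of their list, and MMP7 and CD44 as genes that the paper measured. Other genes (NFE2L2, MAFK, MAPK8, MAPK9, SRF, MKL1, MKL2, ELK4) were chosen after their values were seen, as was the promoter motif TGACATC. Reference transcripts are the canonical ones of GENCODE release 44; 27939 of the 28283 genes are in it. Repeated positions in the peak lists were counted once, and peaks overlapped when their exonic blocks shared 1 nt under genes of the same strand. No FPKM column lacked a sample. Ratios and overlaps were tested on simulated data. Python 3.11.15, NumPy 2.4.6, pandas 2.3.3 and matplotlib 3.10.9 were used.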

Additional observations from a re-analysis of the deposited data

How the results depend on the processing

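Of 105 values recomputed, 82 kept their direction and their side of the threshold, or moved by at most 0.1 on the log2 scale or 1.5 times for counts. With a pseudocount of 0.1, 2 members were lower past 2-fold (FOS at -1.14 in addition to JUN), and the median of the other immediate early genes was -0.30. With a pseudocount of 5, 0 members were past 2-fold in either direction, with JUN at -0.85 and MAFF at 0.34, and the medians of members and targets were -0.26 and -0.37. Without a filter on FPKM the median of the targets was -0.27. With an FPKM of at least 5, 0 members were higher past 2-fold, since MAFF was left out. The medians were then -0.70 (members), 0.069 (kinases, from -0.09), 0.62 (SRF list, from -0.03) and -0.30 (immediate early genes). At 1.5-fold, 3 members were lower. Centred by GC content, an alternative chosen after the values were seen, 0 members were higher past 2-fold (MAFF at 0.95), and the median of the SRF list was 0.15. At an FDR of at most 0.05, 6 of 12 shNC and 6 of 7 shY2-2 member peaks overlapped, beside 61.7% and 77.1% of all peaks; at a fold enrichment of at least 2, 5 of 7 and 5 of 9 did, beside 45.6% and 50.1%. By the reference annotation 11 shNC and 10 shY2-2 member peaks touched a 3′-UTR. No replicate was left out and no paired analysis was possible because each group has 1 library.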
